A study of Caenorhabditis elegans with 12 samples.

Results

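The genes of the body wall muscle sarcomere of Caenorhabditis elegans followed here were unc-54, myo-3, mlc-1, mlc-2, mlc-3, unc-15, lev-11, unc-22, unc-89 and unc-45. They were taken by name from the table of expression values, in which the 10 members are a small part of 46245 gene identifiers. All 10 matched an identifier, none was listed at 0 in any library, and all 10 were among the 12913 protein-coding genes tested, those whose mean reached 1 FPKM (fragments mapped to a transcript, divided by its length and by the fragments in the library).

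The study compared the transcriptomes of lin-52(n771) and N2 larvae after DNA damage. N2 is the wild-type laboratory strain, and lin-52 encodes a subunit of the MuvB core of DREAM, a complex that represses transcription. RNA came from whole synchronized larvae of the L1 stage, fed for 3 h, exposed to UV-B at 60 mJ/cm2 or mock-treated, and collected 6 h later. The 4 groups are called lin-52 UV, N2 UV, lin-52 mock and N2 mock, with 3 libraries each that the submitters describe as biological triplicates. Each strain is a single genotype, so an effect of the n771 allele and any other genetic difference between the strains cannot be told apart. In whole larvae, fewer muscle cells and less RNA per muscle cell cannot be told apart either.

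Body wall muscle moves the worm and is built of obliquely striated sarcomeres. Thick filaments hold myosin heavy chains, their light chains and a paramyosin core, and are anchored at the M-line. Thin filaments of actin, with tropomyosin and troponin, are anchored at dense bodies, the nematode counterpart of Z-discs. Several of these proteins also serve other muscles of the worm, so a level in whole larvae sums over all of them.

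Deposited FPKM summed to between 1243647 and 1398489 per library, and the factors that put the libraries on one scale lay between 0.969 and 1.049. Read totals were not given in the sources used here, so the depth is unknown. The ribosomal share of FPKM was highest in lin-52 mock 2 (22.6%) and lin-52 mock 4 (19.8%) and lay between 11.6% and 16.2% elsewhere. The lin-52 transcript had 10.5 to 11.7 scaled FPKM in lin-52 UV against 32.9 to 35.8 in N2 UV, and 6.94 to 7.58 in lin-52 mock against 20.4 to 27.6 in N2 mock. Together the 10 members made up 0.454% to 0.471% of protein-coding FPKM in lin-52 UV, 0.409% to 0.436% in N2 UV, 0.542% to 0.549% in lin-52 mock and 0.58% to 0.584% in N2 mock.

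All 10 genes had lower transcript levels after UV in both strains, except that mlc-3 and lev-11 in lin-52 larvae turned to 0.09 and 0.01 on the log2 scale under quantile normalization, and for 7 of them the decrease was smaller in lin-52 larvae by the test of the difference. The median log2 fold change of the members was -0.31 in lin-52 larvae and -0.62 in N2 larvae, beside medians of 0.00 in both strains over all 12913 genes. In lin-52 larvae all 10 were called lower at an adjusted p below 0.05 (limma with Benjamini-Hochberg adjustment over all tested genes), beside 33.5% of all tested genes called lower. In N2 larvae all 10 were called lower as well, beside 37% of all tested genes. For all 10 members the 3 UV libraries lay below the 3 mock libraries in lin-52 larvae, a pattern that 35.3% of all genes showed, and likewise in N2 larvae, where 38.4% did. In N2 larvae all 10 calls were retained under every alternative processing tried, but under quantile normalization only 7 of 10 were retained in lin-52 larvae, with values of -0.01 for mlc-1, 0.09 for mlc-3 and 0.01 for lev-11. When lin-52 mock 3 alone stood for its group, because the other lin-52 mock libraries had the highest ribosomal share, myo-3 and mlc-3 were at -0.13 each and lost their calls; the lone library was assumed to vary like the other groups, and its standard error is larger by construction. Beside these libraries' ribosomal shares, the part of ribosomal RNA in the result was not tested.

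**Figure D1:**
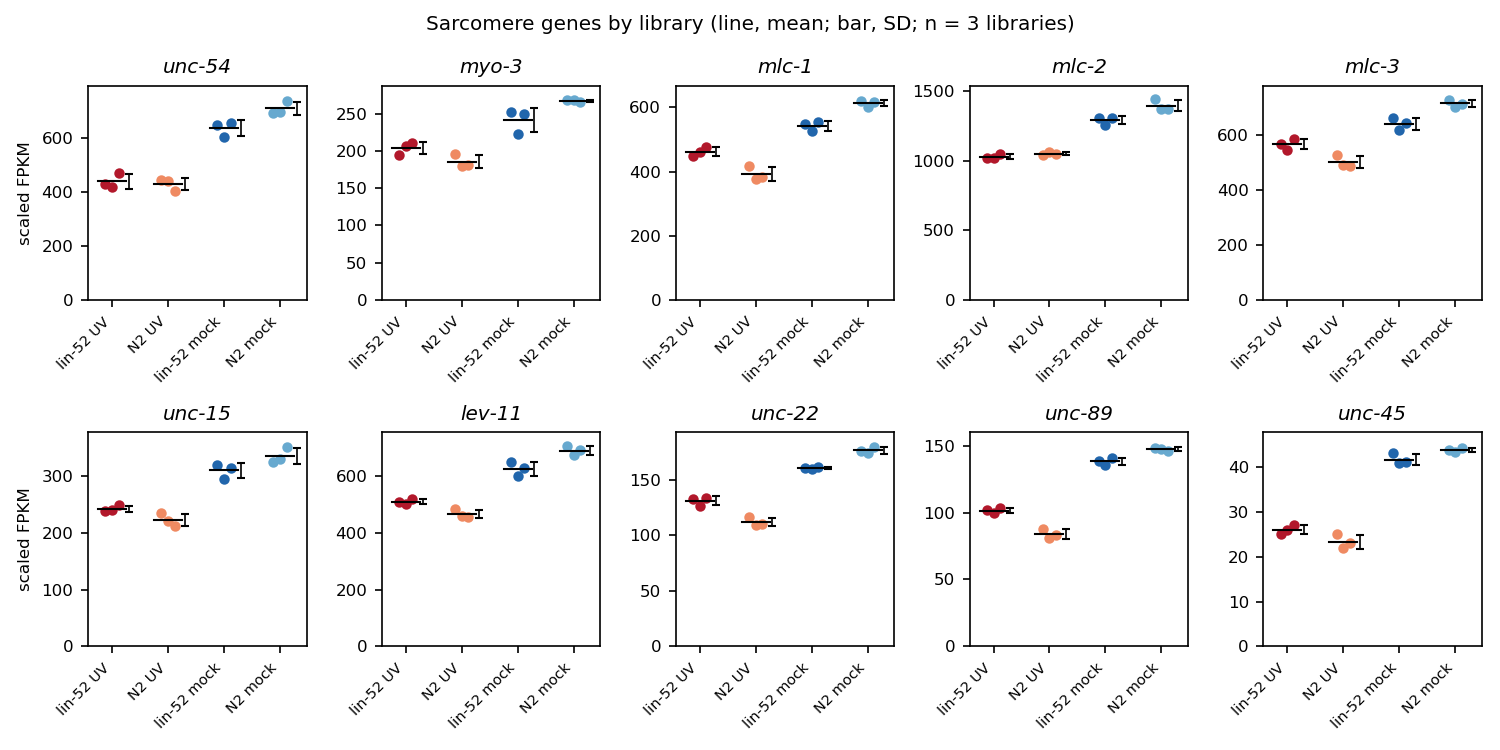
Scaled FPKM of the 10 sarcomere genes in each of the 12 libraries, by group on the horizontal axis (points, libraries; line, mean; bar, SD; n = 3 libraries per group; vertical axes start at 0). In all 10 panels the UV libraries of a strain lie below its mock libraries, with unc-45 at 25.1 to 27.1 in lin-52 UV and 40.8 to 43.2 in lin-52 mock; under quantile normalization mlc-3 and lev-11 in lin-52 larvae no longer have this direction.

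The myosin heavy chains form the body of the thick filament. The gene unc-54 (WBGene00006789) encodes heavy chain B, the main myosin of body wall muscle, and lies on chromosome I at 14855901 to 14863482, minus strand (WBcel235), where no other annotated gene overlaps it. In lin-52 larvae unc-54 had 432, 419 and 472 scaled FPKM after UV, against 651, 606 and 659 after mock treatment. In N2 larvae unc-54 had 447, 444 and 406 after UV, against 694, 700.1 and 740.3 after mock treatment. The UV and mock libraries did not overlap in either strain, and the 6 UV libraries of both strains ran together. The log2 fold change was -0.53 ± 0.05 (SE) in lin-52 larvae and -0.72 ± 0.05 in N2 larvae (limma adjusted p = 4.22e-06 and 2.16e-07).

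The gene myo-3 (WBGene00003515) encodes heavy chain A, which occupies the centre of the thick filament, and lies on chromosome V at 12226817 to 12234343, minus strand, overlapped by 3 short noncoding genes. In lin-52 larvae myo-3 had 194, 207 and 211 scaled FPKM after UV, against 253, 223 and 249 after mock treatment. In N2 larvae myo-3 had 196, 179.9 and 181 after UV, against 268, 268 and 266 after mock treatment. The lin-52 mock libraries were the most spread of the 4 groups, and lin-52 mock 3 was the lowest of them. The log2 fold change was -0.24 ± 0.05 in lin-52 larvae and -0.53 ± 0.05 in N2 larvae (limma adjusted p = 0.00155 and 2.31e-06).

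The light chains bind the neck of the myosin head. The genes mlc-1 (WBGene00003369) and mlc-2 (WBGene00003370) encode regulatory light chains and sit beside each other on chromosome X, transcribed away from each other with 2623 bases between them. The annotation places mlc-1 at 17459210 to 17460778 on the plus strand and mlc-2 at 17455792 to 17456586 on the minus strand. Each overlaps 1 protein-coding gene on the opposite strand, slc-17.1 at mlc-1 and C36E6.2 at mlc-2, whose highest deposited values were 16.1 and 23.3 FPKM. The 2 genes are known as close copies of each other, so how the authors' software shared fragments between mlc-1 and mlc-2 makes each single value uncertain, and whether counting used strand is not given in the sources used here.

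In lin-52 larvae mlc-1 had 449, 462 and 477 scaled FPKM after UV, against 548, 525 and 555 after mock treatment. In N2 larvae mlc-1 had 417, 377 and 384 after UV, against 620.3, 602 and 617 after mock treatment. The lin-52 UV libraries all lay above the N2 UV libraries, whereas the lin-52 mock libraries all lay below the N2 mock libraries. The log2 fold change upon UV was -0.23 ± 0.04 in lin-52 larvae and -0.64 ± 0.04 in N2 larvae (limma adjusted p = 0.000405 and 5.39e-08).

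In lin-52 larvae mlc-2 had 1020, 1021 and 1048 scaled FPKM after UV, against 1311, 1257 and 1306 after mock treatment. In N2 larvae mlc-2 had 1040, 1061 and 1051 after UV, against 1443, 1373 and 1374 after mock treatment. The UV libraries of both strains overlapped, and mlc-2 was the highest of the 10 members in every library. Its log2 fold change was -0.33 ± 0.03 in lin-52 larvae and -0.41 ± 0.03 in N2 larvae, the smallest decrease among the members in N2 (limma adjusted p = 3.37e-06 and 3.11e-07).

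The gene mlc-3 (WBGene00003371; chromosome III, 5565025 to 5567382, plus strand) encodes the essential light chain. In lin-52 larvae mlc-3 had 569.7, 548 and 588 scaled FPKM after UV, against 663, 621 and 644 after mock treatment. In N2 larvae mlc-3 had 530.0, 493 and 489 after UV, against 731, 705 and 717 after mock treatment. The log2 fold change was -0.18 ± 0.04 in lin-52 larvae, the smallest of the members there, and -0.51 ± 0.04 in N2 larvae (limma adjusted p = 0.00247 and 3.57e-07).

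Paramyosin, encoded by unc-15 (WBGene00006754; chromosome I, 7376604 to 7383197, minus strand), forms the core of invertebrate thick filaments. In lin-52 larvae unc-15 had 239, 239.8 and 249 scaled FPKM after UV, against 319.6, 296 and 315 after mock treatment. In N2 larvae unc-15 had 234.8, 221 and 213 after UV, against 326, 331 and 352 after mock treatment. Paramyosin had a log2 fold change upon UV of -0.35 ± 0.05 in lin-52 larvae and -0.59 ± 0.05 in N2 larvae (limma adjusted p = 3.02e-05 and 2.4e-07).

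Tropomyosin, encoded by lev-11 (WBGene00002978; chromosome I, 14621169 to 14631094, minus strand), lies along the actin filament and is the only thin filament protein among the members. The annotation lists 20 transcripts of lev-11, which also serve other tissues, and the values sum over them. In lin-52 larvae lev-11 had 507, 501 and 518 scaled FPKM after UV, against 648, 597 and 626 after mock treatment. In N2 larvae lev-11 had 482, 459 and 455 after UV, against 703, 673 and 688 after mock treatment. Its log2 fold change was -0.29 ± 0.04 in lin-52 larvae and -0.56 ± 0.04 in N2 larvae (limma adjusted p = 2.69e-05 and 6.83e-08).

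Twitchin and UNC-89 are giant proteins with kinase domains. Twitchin, encoded by unc-22 (WBGene00006759; chromosome IV, 11972697 to 12011007, minus strand), binds the thick filament and regulates contraction. The gene spans 38311 bases, and 22 annotated genes, mostly noncoding, overlap it. In lin-52 larvae unc-22 had 133, 127 and 134 scaled FPKM after UV, against 161, 160.3 and 162 after mock treatment. In N2 larvae unc-22 had 117, 109 and 111 after UV, against 176, 174 and 180.0 after mock treatment. The 4 groups did not overlap, and in ascending order they were N2 UV, lin-52 UV, lin-52 mock and N2 mock. For unc-22 the log2 fold change was -0.30 ± 0.03 in lin-52 larvae and -0.65 ± 0.03 in N2 larvae (limma adjusted p = 1.08e-05 and 8.77e-09).

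The gene unc-89 (WBGene00006820; chromosome I, 4035702 to 4090885, plus strand) encodes the nematode obscurin, a component of the M-line, and spans 55184 bases with 16 annotated transcripts. In lin-52 larvae unc-89 had 102, 99.6 and 103 scaled FPKM after UV, against 139, 135 and 141 after mock treatment. In N2 larvae unc-89 had 87.6, 80.7 and 83.5 after UV, against 149, 148 and 146 after mock treatment. The 4 groups again did not overlap. For unc-89 the log2 fold change was -0.44 ± 0.03 in lin-52 larvae and -0.81 ± 0.03 in N2 larvae (limma adjusted p = 4.02e-07 and 1.81e-09).

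The chaperone UNC-45 folds and assembles the myosin head. Its gene unc-45 (WBGene00006781; chromosome III, 491547 to 502625, plus strand) had the lowest level of the 10 members and the largest relative decrease in both strains. In lin-52 larvae unc-45 had 25.1, 25.9 and 27.1 scaled FPKM after UV, against 43.2, 40.8 and 41.0 after mock treatment. In N2 larvae unc-45 had 25.0, 21.9 and 23.02 after UV, against 43.7, 43.3 and 44.3 after mock treatment. For unc-45 the UV effect on the log2 scale was -0.67 ± 0.05 in lin-52 larvae and -0.90 ± 0.05 in N2 larvae (limma adjusted p = 3.26e-07 and 1.7e-08). The mean level after UV was 62.5% of that after mock treatment in lin-52 larvae and 53.2% in N2 larvae.

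Longer members tended to have larger decreases. Spearman's rho between gene span and the UV log2 fold change was -0.49 in lin-52 larvae and -0.73 in N2 larvae over the 10 genes, beside -0.12 in both strains over the 12913 tested genes. These are descriptions across genes, which are not independent replicates. Of the 1317 genes that averaged 100 FPKM or more, 9 of which are members, 54.2% were called lower after UV in lin-52 larvae and 57.6% in N2 larvae. The shares for genes of the members' level were thus above those for all genes, and the part of expression level in the result was not tested.

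**Figure D2:**
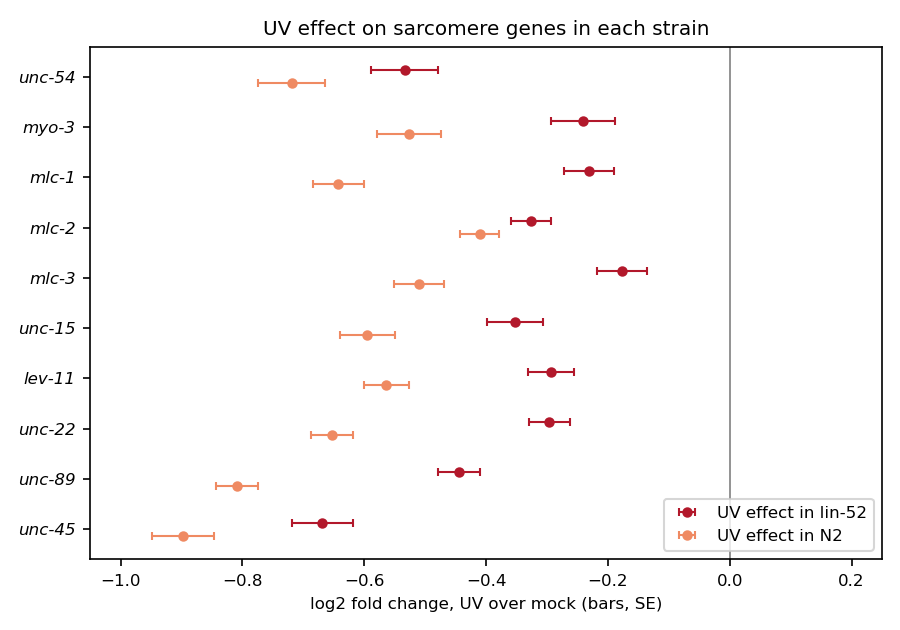
Log2 fold change, UV over mock, of each member in lin-52 larvae and N2 larvae (points, limma estimates; bars, SE; 3 libraries per group). All values are below 0, and the value in lin-52 lies nearer to 0 for each gene, from -0.67 against -0.90 in N2 for unc-45 to -0.18 against -0.51 in N2 for mlc-3; under quantile normalization mlc-3 and lev-11 in lin-52 larvae stood at 0.09 and 0.01.

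Whether UV acted unequally in the strains was tested by the interaction, the UV effect in lin-52 larvae minus that in N2 larvae. It was positive for all 10 members, with a median of 0.28 on the log2 scale, and 7 of 10 were called higher, beside 5.44% of all tested genes. Of the 1317 genes that averaged 100 FPKM or more, 13.1% were called higher in the interaction. The UV effect in lin-52 larvae came to 34.6% (mlc-3) to 79.5% (mlc-2) of that in N2 larvae, with a median of 53.5%. The interaction was largest for mlc-1 at 0.41 ± 0.06 (limma adjusted p = 0.00281). It was 0.36 ± 0.05 each for unc-89 and unc-22 (limma adjusted p = 0.00198 for both) and 0.33 ± 0.06 for mlc-3 (limma adjusted p = 0.00657). Values of 0.27 ± 0.05 for lev-11, 0.28 ± 0.07 for myo-3 and 0.24 ± 0.06 for unc-15 were also called (limma adjusted p = 0.0102, 0.0318 and 0.0354). The genes unc-45 at 0.23 ± 0.07, unc-54 at 0.19 ± 0.08 and mlc-2 at 0.08 ± 0.05 did not pass, with limma adjusted p of 0.0619, 0.147 and 0.268. The largest and smallest values, of mlc-1 and mlc-2, are uncertain, since fragments may have been shared between these close copies.

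The calls of mlc-1, mlc-3, lev-11, unc-22 and unc-89 were lost in 0 of 23 alternatives, none of which changed how fragments were shared between mlc-1 and mlc-2. That of myo-3 was lost in 10 of 23, among them the omission of any 1 of N2 mock 1, 2 and 4, N2 UV 2 and 3 and lin-52 UV 3 and 4, with limma adjusted p of up to 0.0821. That of unc-15 was lost in 12 of 23, among them the omission of any 1 of N2 mock 2 and 4, lin-52 mock 3 and 4, N2 UV 2 and 3 and lin-52 UV 3 and 4, with limma adjusted p of up to 0.0897. The call of myo-3 or unc-15 was therefore near the threshold, whereas its value without 1 library stayed between 0.23 and 0.32 for myo-3 and between 0.21 and 0.28 for unc-15.

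After UV, 6 of 10 members were higher in lin-52 larvae than in N2 larvae, beside 13% of all tested genes called higher. Of the genes that averaged 100 FPKM or more, 15.9% were called higher. The 6 members were unc-89 at 0.27 ± 0.03, mlc-1 at 0.24 ± 0.04, unc-22 at 0.23 ± 0.03, mlc-3 at 0.17 ± 0.04, unc-45 at 0.16 ± 0.05 and lev-11 at 0.13 ± 0.04 (log2 fold change ± SE). Their limma adjusted p-values ran from 0.000244 for unc-89 to 0.0371 for unc-45. The values of myo-3 (0.14), unc-15 (0.12), unc-54 (0.03) and mlc-2 (-0.03) did not pass the test, with limma adjusted p of 0.0749, 0.0625, 0.742 and 0.549. Under each of the 3 other scalings 8 of 10 members were called higher, myo-3 and unc-15 among them. These 2 genes gained calls in 7 and 5 of 24 alternatives. For 7 members the strains' libraries did not overlap after UV, all with lin-52 UV above N2 UV, a pattern that 18.2% of all genes showed. The calls of mlc-1, mlc-3, unc-22 and unc-89 held in 24 of 24 alternatives. That of lev-11 was lost in 5 of 24, without an intensity trend and without any 1 of N2 UV 2, N2 UV 3, lin-52 UV 3 and lin-52 UV 4, and that of unc-45 in 10 of 24, without any of these libraries or of N2 mock 1 or N2 mock 2, without a trend, with the replicate block, with only the 6 libraries and with lin-52 mock 3 alone, with limma adjusted p of up to 0.0934 and 0.15.

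Without UV the members were slightly lower in lin-52 larvae, by a median of -0.14 on the log2 scale. Only 3 of 10 were called lower, beside 1.74% of all tested genes: mlc-1 at -0.18 ± 0.04, mlc-3 at -0.16 ± 0.04 and unc-22 at -0.13 ± 0.03 (limma adjusted p = 0.0314, 0.0473 and 0.0466). Of the genes that averaged 100 FPKM or more, 5.09% were called lower. For all 10 the lin-52 mock libraries lay below the N2 mock libraries, which 14.1% of all genes showed. The 3 calls were lost with the FPKM as deposited, with libraries scaled to an equal sum and with quantile normalization, and on leaving out any 1 of N2 mock 1, 2 and 4, lin-52 mock 2, 3 and 4 or N2 UV 3, while all 10 values stayed negative, between -0.27 and -0.02, in all 24 alternatives. Without lin-52 UV 3 the calls of mlc-1 and mlc-3 were lost, without N2 UV 2 or lin-52 UV 4 those of mlc-3 and unc-22, and without lin-52 UV 2 that of mlc-3, and lev-11 was called without lin-52 mock 2.

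**Figure D3:**
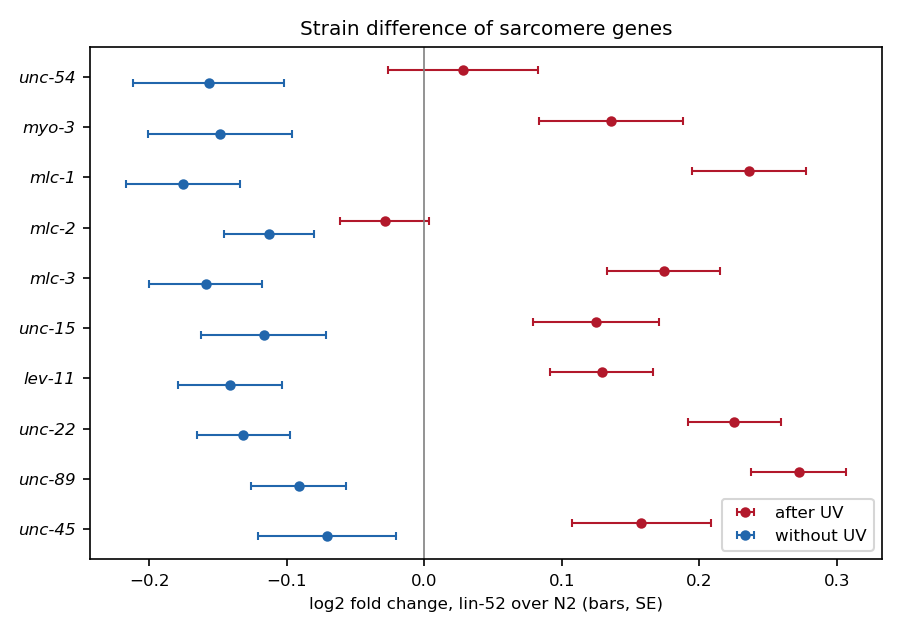
Log2 fold change, lin-52 over N2, of each member after UV and without UV (points, limma estimates; bars, SE; 3 libraries per group). Without UV all 10 values lie between -0.18 and -0.07, and after UV they lie between -0.03 (mlc-2) and 0.27 (unc-89); the value of mlc-2 after UV turned to between 0.01 and 0.02 under 3 other scalings.

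Because FPKM is a value per length of transcript, the members can be ranked within a library. In all 4 groups mlc-2 was the highest and mlc-3 had the next highest mean, and unc-15, myo-3, unc-22, unc-89 and unc-45 followed each other at ranks 6 to 10 with no overlap between neighbours. In lin-52 mock and in N2 mock, mlc-3, unc-54 and lev-11 overlapped as neighbours, so their order within those groups is not set. After UV, unc-54 overlapped with mlc-1 in both strains, at means of 441 ± 27.5 and 462 ± 13.9 in lin-52 UV and of 432 ± 22.6 and 393 ± 21 in N2 UV (SD, n = 3). In all 6 UV libraries unc-54 lay below mlc-3 and lev-11, whereas in both mock groups its libraries overlapped with theirs.

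Ratios within a library are not changed by a factor per library, though quantile normalization changes them, and 8 of them were tested with an exact permutation test over libraries, two-sided, with labels permuted within strata. The design allowed 400 permutations with a smallest p of 0.005, and p-values were adjusted over 16 tests. The ratio of unc-54 to myo-3 averaged 2.16 ± 0.119 in lin-52 UV, 2.33 ± 0.119 in N2 UV, 2.65 ± 0.073 in lin-52 mock and 2.66 ± 0.107 in N2 mock (SD, n = 3 libraries). It was lower after UV by a log2 difference of -0.24 (exact permutation test, adjusted p = 0.0133), by -0.29 in lin-52 and -0.19 in N2 larvae. Under quantile normalization this difference was -0.07 and lost its call (exact permutation test, adjusted p = 0.191), at -0.16 in lin-52 and 0.02 in N2 larvae. The ratio of unc-45 to the summed heavy chains was also lower after UV, with a log2 difference of -0.24, at 0.0404 ± 0.000868 in lin-52 UV, 0.0377 ± 0.00228 in N2 UV, 0.0474 ± 0.00206 in lin-52 mock and 0.0447 ± 0.000695 in N2 mock (exact permutation test, adjusted p = 0.0133).

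Further ratios set members against the summed heavy chains, a sum of which unc-54 makes up the larger part. Relative to unc-54 and myo-3 together, the regulatory light chains were higher after UV by 0.17, tropomyosin by 0.13 and paramyosin by 0.08 on the log2 scale (exact permutation test, adjusted p = 0.0133 for each), but the paramyosin difference turned to -0.05 under quantile normalization. Against myo-3 alone the fitted decreases were not smaller for unc-15, at -0.35 in lin-52 and -0.59 in N2 larvae, or for lev-11, at -0.29 in lin-52 and -0.56 in N2 larvae, beside -0.24 in lin-52 and -0.53 in N2 larvae for myo-3. Twitchin relative to UNC-89 was higher by 0.15, at a mean ratio of 1.29 in lin-52 UV, 1.34 in N2 UV, 1.17 in lin-52 mock and 1.2 in N2 mock (exact permutation test, adjusted p = 0.0133). These 6 differences were in the same direction in both strains with the scaled FPKM, and none lost its call when a library was left out. The UV differences of mlc-1 to mlc-2 (-0.07) and of mlc-3 to the regulatory light chains (0.04) did not pass (exact permutation test, adjusted p = 0.304 and 0.223).

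The ratio of mlc-1 to mlc-2 was 0.449 ± 0.00767 in lin-52 UV, 0.374 ± 0.0237 in N2 UV, 0.42 ± 0.0042 in lin-52 mock and 0.439 ± 0.00952 in N2 mock (SD, n = 3). Its UV difference was 0.10 in lin-52 larvae and -0.23 in N2 larvae on the log2 scale, and whether this UV difference was unequal between the strains was not tested. Within treatment the strain difference of this ratio, lin-52 minus N2, was 0.27 after UV and -0.06 without UV. Its mean of 0.10 did not pass (exact permutation test, adjusted p = 0.216). Between strains, 3 ratios passed within treatment: unc-45 to the heavy chains at 0.09, unc-15 to the heavy chains at 0.05 and unc-22 to unc-89 at -0.04 (lin-52 minus N2, exact permutation test, adjusted p = 0.0229, 0.0356 and 0.03). Each of the 3 lost its call on leaving out single libraries and under quantile normalization.

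**Figure D4:**
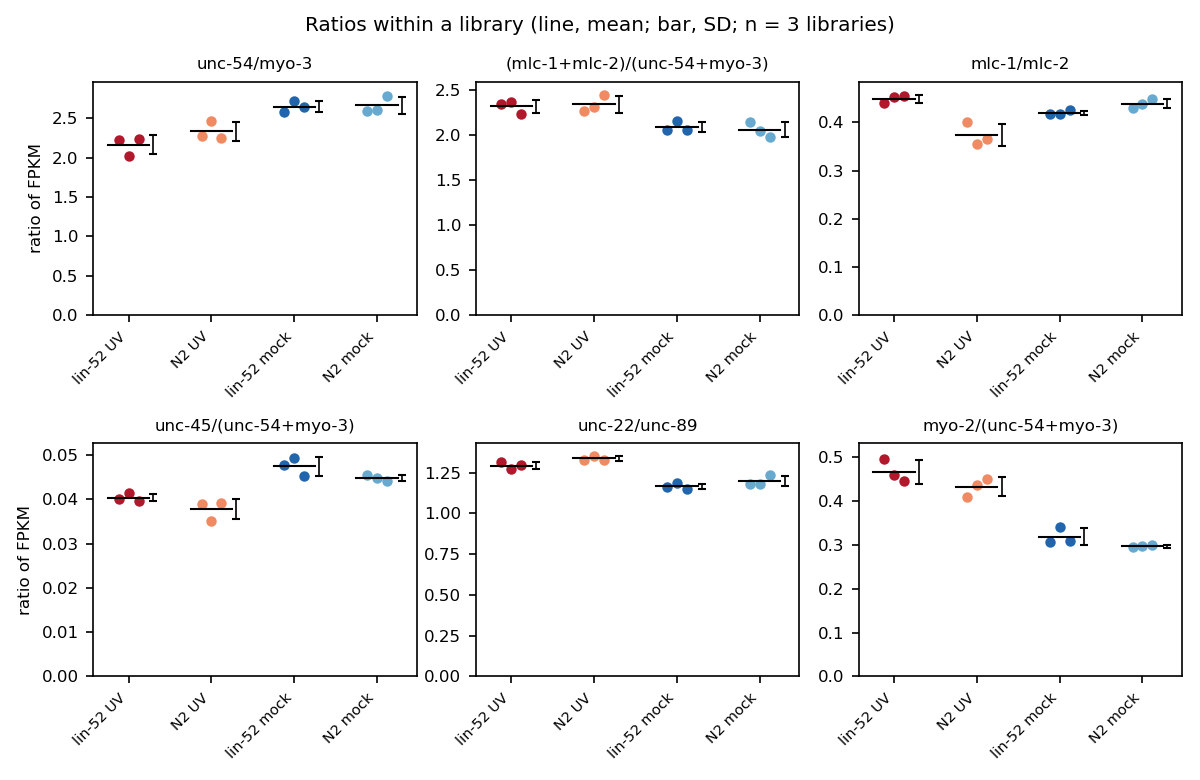
Ratios of FPKM within a library for 6 pairs of genes or gene sums, by group (points, libraries; line, mean; bar, SD; n = 3 libraries; vertical axes start at 0). The ratio of unc-54 to myo-3 lies between 2.03 and 2.47 in the UV libraries and between 2.58 and 2.79 in the mock libraries, and the ratio of myo-2 to the body wall heavy chains between 0.408 and 0.496 in the UV libraries and between 0.294 and 0.341 in the mock libraries.

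Pharyngeal muscle, which pumps food, has its own myosin genes and served as the nearest comparison. The pharyngeal heavy chain gene myo-2 averaged 300 ± 12.6 scaled FPKM in lin-52 UV against 280 ± 3.03 in lin-52 mock, and 266 ± 5.16 in N2 UV against 290 ± 9.96 in N2 mock (SD, n = 3). Its UV log2 fold change was 0.10 in lin-52 larvae and -0.12 in N2 larvae (limma adjusted p = 0.0295 and 0.00974), and the N2 call was lost under 3 other scalings. The ratio of myo-2 to unc-54 and myo-3 together was higher after UV by 0.54 on the log2 scale, at 0.55 in lin-52 and 0.54 in N2 larvae (exact permutation test, unadjusted p = 0.005, the smallest possible). This ratio was chosen after its values were seen. Of 7 pharyngeal muscle genes, myo-1 among them, 3 were called higher and 1 lower after UV in lin-52 larvae, and 2 higher and 3 lower in N2 larvae. The troponin T gene tnt-4 fell by 0.11 in lin-52 and by 0.55 in N2 larvae, the lin-52 call being lost under 3 other scalings, and myo-5 rose by 0.71 in lin-52 and by 0.45 in N2 larvae. The pharyngeal heavy chain gene myo-1 was listed at 0 in some libraries, in all 3 of lin-52 mock among them, and is not described further.

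The other parts of the sarcomere were described by lists of genes, with counts and medians and no test of a list. Of 18 further thin filament genes, 13 were lower and 2 higher after UV in each strain, with a median log2 fold change of -0.43 in lin-52 larvae and -0.61 in N2 larvae. Under the 3 other scalings 11 to 13 of these were called lower in lin-52 larvae and 13 in N2 larvae. The shares of all tested genes called lower were 33.5% in lin-52 and 37% in N2 larvae. Among the genes that averaged 100 FPKM or more they were 54.2% in lin-52 and 57.6% in N2 larvae. The troponin I gene tni-1 fell by 0.60 in lin-52 larvae and by 0.87 in N2 larvae, on the log2 scale. Tropomodulin (unc-94) rose by 0.48 in lin-52 and by 0.47 in N2 larvae, and the capping protein subunit gene cap-2 rose by 0.40 in lin-52 and by 0.58 in N2 larvae. The actin genes act-1 to act-4 are near-identical copies, so their single values are uncertain. Among them act-1 had -0.47 in lin-52 larvae and -0.90 in N2 larvae, both called, and act-2 was lower in lin-52 mock than N2 mock larvae with a log2 fold change of -0.19 (limma adjusted p = 0.0068).

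After UV 33.5% of all tested genes were called lower in lin-52 larvae and 37% in N2 larvae. Of 23 genes of dense bodies, M-lines and their attachment to the basement membrane, 17 were lower and 5 higher after UV in lin-52 larvae, and 18 lower and 4 higher in N2 larvae. In this list alp-1, which encodes an Enigma family protein of dense bodies, fell by 0.47 in lin-52 larvae and by 1.1 in N2 larvae, and its interaction of 0.63 was the largest of the list (limma adjusted p = 0.000737). Basement membrane genes fell too, with laminin beta (lam-1) at -0.74 in lin-52 and -0.94 in N2 larvae and the collagen IV chain gene let-2 at -0.60 in lin-52 and -0.82 in N2 larvae. The kindlin gene unc-112 went the other way, at 0.55 in lin-52 and 0.69 in N2 larvae. In the interaction 12 of the 23 genes were called higher, beside 5.44% of all tested genes. The interaction was also called higher for 6 of 18 thin filament, 8 of 22 excitation and calcium handling, 4 of 7 pharyngeal muscle and 2 of 11 dystrophin complex genes, and for 4 of 10 neuronal markers, of which 1 more, snb-1, was called lower. The pharyngeal count was 3 under each of the 3 other scalings. In other lists 0 of 6 muscle transcription factor genes, 0 of 7 hypodermal markers and 1 of 7 intestinal markers were called higher. Of 12 non-muscle myosin and actin genes 0 were called higher and 1 lower, and of 15 muscle energy supply genes 2 higher and 3 lower. Such a difference between the strains was thus measured in some lists outside body wall muscle and not in others.

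Giant and thick filament associated proteins did not move together. Of 8 tested, 2 were lower and 4 higher after UV in lin-52 larvae, and 4 lower and 2 higher in N2 larvae. The shares of all tested genes were 33.5% lower and 33.1% higher in lin-52 larvae, and 37% lower and 36.6% higher in N2 larvae. The 8 include unc-105, an ion channel gene rather than a filament protein gene. It was called higher in both strains, at 0.62 in lin-52 and 0.55 in N2 larvae. The titin-like gene ttn-1 fell by 0.98 in lin-52 and by 1.11 in N2 larvae, more than any of the 10 members. The gene unc-96, whose product is found at the M-line, stood at -0.08 in lin-52 larvae, which did not pass, and fell by 0.62 in N2 larvae, with an interaction of 0.54 (limma adjusted p = 0.000415). The myosin heavy chain gene myo-6 rose by 0.21 in lin-52 larvae and had -0.06 in N2 larvae, which did not pass.

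Excitation and calcium handling genes fell in part. Of 22 tested, 13 were lower and 2 higher after UV in lin-52 larvae, and 14 lower and 1 higher in N2 larvae, beside 33.5% of all tested genes called lower in lin-52 and 37% in N2 larvae. The L-type calcium channel gene egl-19 fell by 0.38 in lin-52 and by 0.86 in N2 larvae, and the ryanodine receptor gene unc-68 fell by 0.37 in lin-52 and by 0.68 in N2 larvae. The large-conductance potassium channel gene slo-1, also used by neurons, fell most, by 1.06 in lin-52 and by 1.44 in N2 larvae. The IP3 receptor gene itr-1 rose by 0.54 in lin-52 and by 0.61 in N2 larvae, while the potassium channel gene twk-18 fell by 0.45 in lin-52 and by 0.75 in N2 larvae. In the dystrophin complex 7 of 11 genes were lower in each strain, and stn-2 (0.21) and islo-1 (0.28) were called higher in N2 larvae, with dys-1, the dystrophin gene, at -0.54 in lin-52 and -0.87 in N2 larvae. The largest decreases there were those of dyc-1 in lin-52 larvae (-0.77) and of the syntrophin gene stn-1 in N2 larvae (-0.98), and the sarcoglycan gene sgcb-1 was higher in lin-52 UV than N2 UV by 0.36 (limma adjusted p = 0.00193).

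Regulators of muscle identity went both ways. Of 6 transcription factor genes tested, 4 were higher and 1 lower after UV in lin-52 larvae, beside 33.1% of all tested genes called higher, and 3 were higher and 1 lower in N2 larvae, beside 36.6%. Under quantile normalization these became 3 and 1 in lin-52 larvae, where sem-2 lost its call, and 2 and 1 in N2 larvae. The MyoD homologue hlh-1 averaged 14.7 ± 1.22 scaled FPKM in lin-52 UV against 12.1 ± 0.92 in lin-52 mock, and 15.4 ± 0.453 in N2 UV against 13.5 ± 0.387 in N2 mock (log2 fold changes 0.27 in lin-52 and 0.18 in N2 larvae, limma adjusted p = 0.00503 and 0.0371). The N2 call of hlh-1 was lost under quantile normalization. The SRF homologue unc-120 rose by 0.61 in lin-52 and by 0.64 in N2 larvae, and the homeobox gene mls-2 fell by 0.71 in lin-52 and by 0.60 in N2 larvae. Of 12 genes for myosin folding or for the turnover of UNC-45, 9 were called lower in each strain, beside 33.5% of all tested genes in lin-52 and 37% in N2 larvae. The N2 count was 6 with FPKM as deposited and with equal sums, where ufd-2, cdc-48.1 and unc-23 lost their calls. Of the chaperones, sti-1, a partner of Hsp90, was at -0.48 in lin-52 and -0.69 in N2 larvae, while hsp-90 itself, at -0.07 in lin-52 and -0.09 in N2 larvae, did not pass. Of the turnover genes cdc-48.2 fell by 0.63 in lin-52 and by 0.66 in N2 larvae, and the small heat shock protein gene hsp-43 rose by 0.19 in lin-52 and by 0.54 in N2 larvae.

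**Figure D5:**
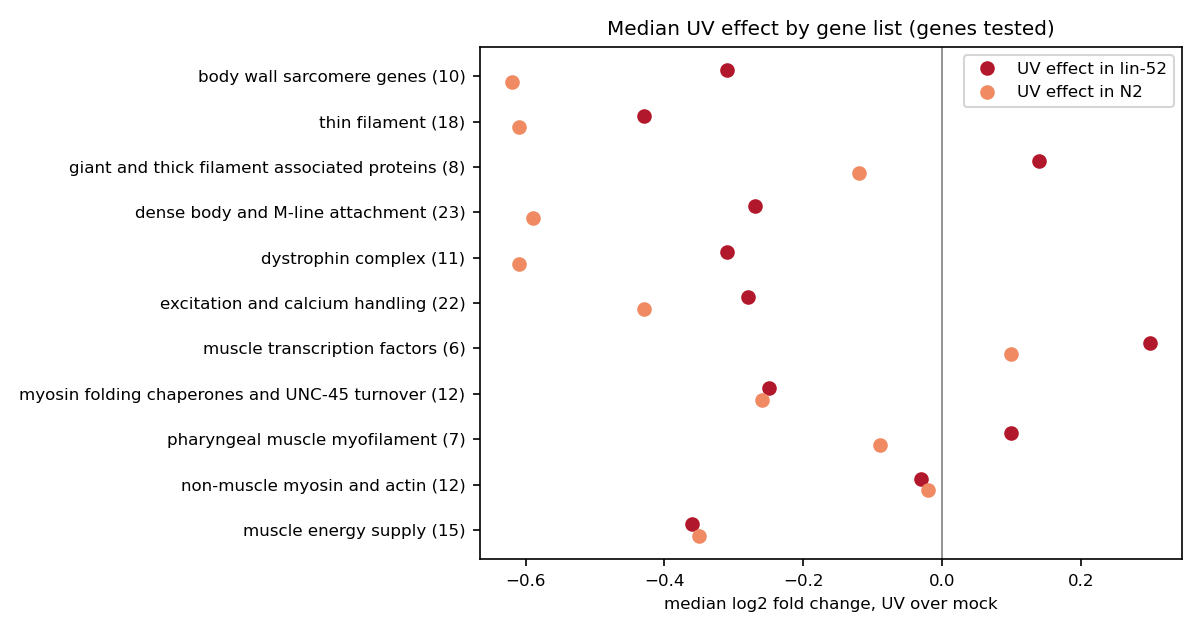
Median UV log2 fold change of the 10 members and of 10 lists of related genes in lin-52 larvae and N2 larvae (points, medians; number of genes tested in parentheses; no test of a list). Members, thin filament, attachment, dystrophin complex and calcium handling genes have medians from -0.43 to -0.27 in lin-52 larvae and from -0.62 to -0.43 in N2 larvae. Pharyngeal genes have 0.10 in lin-52 and -0.09 in N2 larvae, and giant and thick filament associated genes have 0.14 and -0.12. In the same order, muscle energy supply has -0.36 and -0.35 and myosin folding and turnover -0.25 and -0.26. Transcription factors have 0.30 and 0.10, and non-muscle genes -0.03 and -0.02.

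Some markers of other cell types moved with treatment as well. After UV 33.5% of all tested genes were called lower and 33.1% higher in lin-52 larvae, and 37% lower and 36.6% higher in N2 larvae. Of 10 neuronal genes, 9 were lower after UV in lin-52 larvae and 8 lower with 1 higher in N2 larvae, with medians of -0.57 in lin-52 and -0.75 in N2 larvae. Their summed level was 611 to 667 scaled FPKM in lin-52 UV, 667 to 687 in N2 UV, 802 to 837 in lin-52 mock and 860 to 880 in N2 mock. Summed body wall muscle markers outside the members had 378 to 405 in lin-52 UV, 355 to 376 in N2 UV, 500 to 533 in lin-52 mock and 556 to 575 in N2 mock. Most of that sum was tni-1, at means of 241 in lin-52 UV, 219 in N2 UV, 364 in lin-52 mock and 400 in N2 mock, and the list went both ways, since hlh-1 and unc-120 were called higher after UV and unc-29, at 0.08 in lin-52 and -0.07 in N2 larvae, did not pass. Intestinal markers were called lower in 1 and higher in 4 of 7 genes after UV in lin-52 larvae, and lower in 1 and higher in 3 in N2 larvae, and 1 of the list, act-5, was listed at 0 in all libraries. Hypodermal markers summed to 99.4 to 109 in lin-52 UV, 100.7 to 104.1 in N2 UV, 217 to 304 in lin-52 mock and 206 to 260 in N2 mock. The difference in that sum lay in the cuticle collagen gene dpy-7, at means of 1.06 in lin-52 UV against 73.5 in lin-52 mock and of 0.497 in N2 UV against 60 in N2 mock, and in wrt-10, at 0.733 in lin-52 UV against 80.1 in lin-52 mock and 0.605 in N2 UV against 57.9 in N2 mock. Of 7 hypodermal genes tested, 3 were called lower and 0 higher after UV in lin-52 larvae, and 4 lower and 0 higher in N2 larvae. The low gene che-14 fell by 0.96 in lin-52 and by 1.19 in N2 larvae, both called, from mock means of 1.93 and 2.13 scaled FPKM. The hypodermal transcription factor genes lin-26, elt-3 and elt-1 stood at -0.10, -0.10 and 0.03 in lin-52 larvae and at -0.20, -0.14 and 0.03 in N2 larvae, of which only lin-26 in N2 larvae passed. The part of these cell types in the members' result was not tested.

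Across the 12 libraries the members varied together. Pearson's r between pairs of members ran from 0.90 to 0.99 over 45 pairs, with a median of 0.97, and all points share the libraries and the UV treatment. The 10 other genes whose pattern was most like the mean of the members had r of 0.99 to 0.996 over the same libraries. They were col-167, csq-1 (calsequestrin of the muscle calcium store), clik-1 and unc-87 (calponin-related actin-binding proteins), unc-52 (perlecan of the muscle basement membrane), lam-2 (laminin gamma), tni-1 (troponin I), col-169, haf-4 and egl-10. Among these csq-1 fell by 0.34 in lin-52 and by 0.57 in N2 larvae after UV, and unc-52 fell by 0.39 in lin-52 and by 0.71 in N2 larvae. The cuticle collagen gene col-167, which had the highest r, fell by 0.57 in lin-52 and by 1.03 in N2 larvae. Another, col-169, fell by 0.77 in lin-52 and by 1.34 in N2 larvae.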

How the data were processed

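The deposited table held FPKM per gene and library. Per the labels and the study's methods, the authors depleted ribosomal RNA, sequenced stranded libraries as paired reads, aligned them with Tophat and computed FPKM with Cufflinks on the gene models of an Ensembl release older than the one used here. No source used here names the assembly of the alignment. Names and WBcel235 coordinates came from Ensembl 115, which held 45990 of the 46245 identifiers.

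FPKM were scaled by median-ratio factors over protein-coding genes, filtered at a mean of 1, and taken to log2(FPKM + 0.5), which understates changes of low genes. A model with 4 group means was fitted over 12 libraries with limma 3.58.1 (R 4.3.3), with an intensity trend and Benjamini-Hochberg adjustment over the 12913 genes of each contrast, and calls were made below 0.05. The authors named DESeq2, which FPKM do not allow. Such p-values set a difference of group means against the spread between these libraries, pooled over the 4 groups. Scripts were tested on simulated data. Ratios used exact permutation tests in Python 3.11.15.

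Alternatives were 3 other scalings, pseudocounts of 0.1 and 1, no filter or one at 5 FPKM, all biotypes, no trend, a replicate block, only the 6 libraries of a comparison, and each library left out. Added after the data were seen were lin-52 mock 3 alone in its group, the ratio of myo-2 to the body wall heavy chains, and ratios from quantile-normalized values. Members and gene lists were chosen with earlier results of these data known. Named genes were the members, the called gene of each list with the largest change per pairwise contrast, and the 10 genes most like the members. Others named within a list were chosen after their values were seen. Promoter and protein sequences were not used here.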

Additional observations from a re-analysis of the deposited data

Results flagged for a closer look

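The UV effect differed between the strains for 7 members, by the interaction term of limma with Benjamini-Hochberg adjustment over all tested genes. In that term 5.44% of all tested genes were called higher, and 13.1% of those that averaged 100 FPKM or more. The UV effect in lin-52 larvae minus that in N2 larvae was 0.41 for mlc-1, 0.36 for unc-22, 0.36 for unc-89, 0.33 for mlc-3, 0.28 for myo-3, 0.27 for lev-11 and 0.24 for unc-15, on the log2 scale. All 7 were lower after UV in both strains, and the decrease was larger in N2 larvae, under the scaling used here. Under quantile normalization mlc-3 and lev-11 stood at 0.09 and 0.01 in lin-52 larvae. The interaction calls of myo-3 and unc-15 were near the threshold and were lost in 10 and 12 of 23 alternatives.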

How the results depend on the processing

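The members' calls upon UV held at 10 of 10 in N2 larvae in every alternative, and in lin-52 larvae at 10 of 10 except under quantile normalization (7) and with lin-52 mock 3 alone (8). Under quantile normalization the UV values in lin-52 larvae reversed to 0.09 for mlc-3 and 0.01 for lev-11. After UV, lin-52 over N2, mlc-2 reversed to 0.01 with the FPKM as deposited and under quantile normalization and to 0.02 with libraries scaled to an equal sum, and unc-54 reversed to -0.02 without N2 UV 3 and without lin-52 UV 4, neither being called. The strain difference of the regulatory light chains relative to the heavy chains lay between -0.01 and 0.02 as libraries were left out, with -0.01 or 0.0 where it reversed. The causes were not tested.

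Members called without UV, 3 of 10, became 0 with FPKM as deposited, with equal sums, with quantile normalization, without a trend, with the replicate block and with lin-52 mock 3 alone, and 1 with no filter, all biotypes or only the 6 libraries, with 0 to 3 as single libraries were left out. Over all genes 688 were called in that comparison, against 414 with the replicate block, 315 with lin-52 mock 3 alone and 447 to 781 without single libraries. For the interaction, 1503 genes were called, against 837 with the replicate block, 499 with lin-52 mock 3 alone and 833 to 2184 without single libraries. The members' interaction calls, 7, ran from 5 to 8 and their calls after UV, 6, from 4 to 8 without single libraries. Their calls after UV were 8 under each of the 3 other scalings. Strain calls without UV were 463 higher and 225 lower, but 542 and 109 with FPKM as deposited and 574 and 93 with equal sums. After UV they were 1673 and 1964, but 2110 and 1449 with FPKM as deposited, 2248 and 1257 with equal sums and 1983 and 1702 under quantile normalization. Upon UV in lin-52 larvae they were 4268 and 4330, but 4920 and 3685 with equal sums.

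The strain calls of the ratios, unc-45 to heavy chains (0.07 to 0.11), unc-15 to heavy chains (0.04 to 0.06) and unc-22 to unc-89 (-0.05 to -0.03), were each lost without some single library and under quantile normalization, a setting added after the data were seen, at 0.06, 0.05 and -0.05. There the UV difference of unc-54 to myo-3 (-0.07) lost its call and that of unc-15 to heavy chains reversed to -0.05; the other 4 called UV differences of ratios kept direction and call, and the ratio with myo-2 was not run. Replicate numbers were not used to pair libraries in the main model. The deviations of 13 same-numbered pairs correlated at -0.164 to 0.251, with 3 over 0.1. Pairs with unlike numbers were not compared, so these values cannot settle whether the numbers pair libraries. With the replicate block 10 and 10 members were called upon UV, 5 in the interaction and 5 after UV. With 3 libraries per group and depth unknown, the median SE over all genes was 0.084, which limits the differences that can be called for a typical gene.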

Other observations

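Most genes of muscle energy supply were called lower after UV under the scaling used here. Of 15 tested, 11 were lower in each strain, with a median log2 fold change of -0.36 in lin-52 larvae and -0.35 in N2 larvae. Of all tested genes 33.5% in lin-52 and 37% in N2 larvae were called lower. Under quantile normalization 8 were lower and 1 higher in lin-52 larvae (median -0.08), and 9 lower and 4 higher in N2 larvae (median -0.18). In the interaction 2 of the 15 were called higher and 3 lower. Lactate dehydrogenase (ldh-1) averaged 139 scaled FPKM in lin-52 UV against 215 in lin-52 mock, and 108 in N2 UV against 226 in N2 mock, with an interaction of 0.44 (limma with Benjamini-Hochberg adjustment, adjusted p = 0.00625). Phosphoglycerate kinase (pgk-1) fell by 0.73 in lin-52 and by 0.78 in N2 larvae. Arginine kinase (argk-1), which buffers ATP in invertebrate cells, rose by 0.46 in lin-52 and by 1.02 in N2 larvae, and its lin-52 mock level exceeded that of N2 mock by 0.47 (limma adjusted p = 0.0385).

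Non-muscle myosin and actin genes were mixed, with 3 of 12 higher and 5 lower after UV in lin-52 larvae and 4 higher and 4 lower in N2 larvae. The heavy chain gene nmy-1 fell by 0.89 in lin-52 and by 0.96 in N2 larvae, the unconventional myosin gene hum-1 rose by 0.40 in lin-52 and by 0.63 in N2 larvae, and hum-7 fell by 0.38 in lin-52 and by 0.63 in N2 larvae. Germline markers, apart from muscle, summed to 138 to 147 scaled FPKM in lin-52 UV against 40.4 to 43.7 in N2 UV, and to 115 to 125 in lin-52 mock against 34.9 to 36.9 in N2 mock.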
